A study of Mus musculus with 2 samples.

Results

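Interferon-induced genes were followed gene by gene through the cells of day 6 skin wounds from aged and young mice. The set was a list of 49 names, chosen with earlier results of these data known. Matched by symbol to the deposited gene table, the names gave 48 genes of 33696 features, since Ddx58 is the older name of Rigi and had no row of its own. By textbook knowledge 24 of the genes were put down as induced mainly by type I interferon, 13 as induced mainly by type II interferon and 11 as induced by both, although many answer to both types to some degree.

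The material was 10x droplet 3′ single-cell RNA from full-thickness wounds 10 mm wide on the backs of wild-type male C57BL/6 mice, taken on day 6 after wounding. The aged library came from 24-month-old mice and the young library from 2-month-old mice. Each was a pool of several mice, and there was 1 library per age. No spread between animals can therefore be had, no test between ages was made, and all 95% intervals below cover the error of counting molecules only.

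Interferons are secreted proteins that alarm cells to infection and tissue damage. Type I interferons, such as the product of Ifnb1, signal through the receptor of Ifnar1 and Ifnar2 and act on genes with an interferon-stimulated response element (ISRE) through a complex that holds Stat2 and Irf9. Type II interferon, the product of Ifng, comes mostly from T and NK cells, signals through Ifngr1 and Ifngr2, and acts on genes with gamma-activated sites (GAS). The products block viral replication, destroy the vacuoles of parasites, present antigen and call in T cells.

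The promoter sequences show these elements in the genes themselves. RefSeq promoters (GRCm38.p6, 250 bases before to 50 after each start) were found for 38 of the 48 genes. No entry was found for Dhx58, Usp18, Iigp1, Oas2, Cxcl11, Rtp4, Zbp1, Mx2, Parp14 and Mx1. On either strand, the ISRE letters (GAAA, any 2 bases, GAAA) were present in 11 of 18 type I promoters (61.1%), in 8 of 12 type II promoters (66.7%) and in 4 of 8 promoters of genes induced by both (50%), against 943 of all 27025 promoters of that length (3.49%). The GAS letters (TTC, any 3 bases, GAA) were present in 2 of 18 type I promoters (11.1%, Ifit2 and Oas1a), in 6 of 12 type II promoters (50%, Irf1, Irf8, Gbp5, Gbp7, Irgm2 and Igtp) and in 4 of 8 of the others (50%), against 2288 of all promoters (8.47%). The difference in GAS shares between the lists was not tested. A match is a description of the letters and not a shown binding site, and the GAS share rests on the spacing searched, since with any 4 bases between TTC and GAA the counts were 2 of 18 type I and 0 of 12 type II promoters.

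Shown here are the 250 bases upstream of the start of the 3 type I and the 3 type II genes with the most molecules over all cells, with matches of either motif in capitals.

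Isg15: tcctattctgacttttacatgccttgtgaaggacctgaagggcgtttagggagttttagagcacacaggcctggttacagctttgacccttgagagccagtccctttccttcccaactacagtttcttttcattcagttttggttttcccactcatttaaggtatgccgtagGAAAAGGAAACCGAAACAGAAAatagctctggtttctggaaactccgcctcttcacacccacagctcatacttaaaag

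Ifit1: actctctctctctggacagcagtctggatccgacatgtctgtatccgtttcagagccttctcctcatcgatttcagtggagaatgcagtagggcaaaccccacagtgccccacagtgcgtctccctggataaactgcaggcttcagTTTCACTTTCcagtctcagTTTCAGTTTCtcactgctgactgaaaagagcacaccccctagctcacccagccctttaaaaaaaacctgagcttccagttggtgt

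Rsad2: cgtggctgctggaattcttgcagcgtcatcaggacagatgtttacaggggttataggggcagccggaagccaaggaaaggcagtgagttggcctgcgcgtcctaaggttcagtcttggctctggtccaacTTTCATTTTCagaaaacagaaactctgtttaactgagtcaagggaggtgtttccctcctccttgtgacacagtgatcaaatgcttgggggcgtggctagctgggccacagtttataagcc

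Cxcl9: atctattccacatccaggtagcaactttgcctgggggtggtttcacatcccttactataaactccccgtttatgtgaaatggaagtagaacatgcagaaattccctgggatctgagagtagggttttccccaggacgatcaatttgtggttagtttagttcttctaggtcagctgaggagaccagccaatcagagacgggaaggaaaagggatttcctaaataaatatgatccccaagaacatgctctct

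Gbp2: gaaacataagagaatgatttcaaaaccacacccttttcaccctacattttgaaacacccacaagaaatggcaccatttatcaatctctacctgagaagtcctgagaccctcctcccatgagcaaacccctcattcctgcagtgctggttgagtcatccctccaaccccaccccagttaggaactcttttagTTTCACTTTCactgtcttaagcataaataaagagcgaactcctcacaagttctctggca

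Socs1: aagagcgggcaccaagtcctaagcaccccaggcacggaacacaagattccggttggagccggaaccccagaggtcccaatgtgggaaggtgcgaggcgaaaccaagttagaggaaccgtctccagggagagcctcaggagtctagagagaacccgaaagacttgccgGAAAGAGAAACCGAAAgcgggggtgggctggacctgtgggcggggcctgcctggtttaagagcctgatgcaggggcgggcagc

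Isg15 (chr4:156200819-156201068, minus strand) held 3 overlapping ISRE matches between 78 and 57 bases upstream of the start. Ifit1 (chr19:34640639-34640888, plus strand) held 2 apart from each other, from 104 to 95 and from 85 to 76 bases upstream. Rsad2 (chr12:26456453-26456702, minus strand) held 1, from 120 to 111 bases upstream. Of the type II genes, Gbp2 (chr3:142620413-142620662, plus strand) held 1 from 59 to 50 bases upstream and Socs1 (chr16:10785537-10785786, minus strand) held 2 overlapping matches between 83 and 68 bases upstream. Cxcl9 (chr5:92328080-92328329, minus strand) held no match of either motif in this window.

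After filtering, the aged library held 4210 cells with 107577591 molecules (unique molecular identifiers, UMIs) and the young library 4661 cells with 111268003, with median depths of 13776.5 and 15566 UMIs per cell, and the libraries shared 3 barcodes. Cells were gated by fixed marker genes rather than by clusters, so that no interferon-induced gene took part in the naming. The fibroblast gate (markers such as Col1a1, Dcn and Pdgfra) held 1382 aged and 1511 young cells, the macrophage/monocyte gate (Csf1r, C1qa, Ccr2 and others) 1181 and 748, and the neutrophil gate (S100a8, Csf3r, Cxcr2 and others) 727 and 1167. Smaller gates held 61 aged and 33 young dendritic-gated cells, 58 and 76 endothelial-gated cells, and 32 and 288 T/NK-gated cells. Cells with 2 gates were left out (7.48% of aged and 8.30% of young cells). Their second score was at least 0.5 of the best, and doublets would be sought among them. Cells in no gate (10.0% and 7.19%) were left out too. The gates are ranges of a score, and 12.5% of aged and 17.1% of young macrophage/monocyte-gated cells lay near its limit, as did 12.2% and 6.68% of neutrophil-gated and 0.507% and 0.728% of fibroblast-gated cells. Median depths per cell were 49785.5 UMIs in aged and 42098 in young fibroblast-gated cells, 12245 and 16159 in macrophage/monocyte-gated cells, and 4334 and 5855 in neutrophil-gated cells.

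Levels are UMIs summed over the cells of a gate and scaled to the gate's total, in the usual CPM unit. UMIs count the 3′ ends of transcripts, so CPM does not depend on transcript length. A gene was called higher or lower where it had at least 20 UMIs in both libraries together and the whole interval of its aged over young ratio lay beyond 1.5-fold. List medians are log2 ratios with 5 CPM added to both levels, which makes the ratio of scarce genes smaller.

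**Figure D1:**
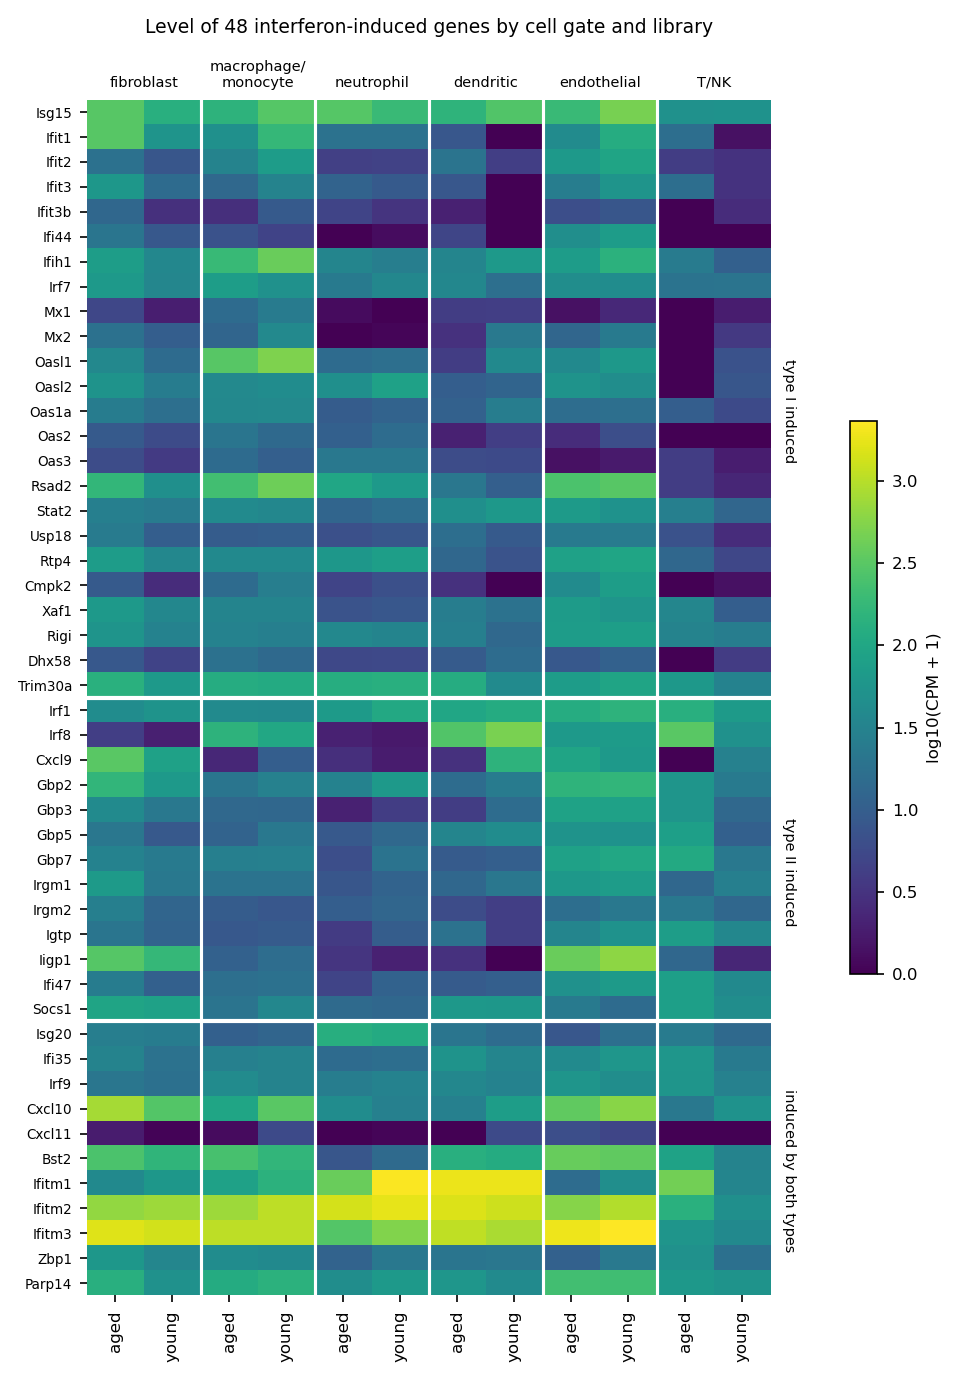
Level of each of the 48 genes (rows, grouped by list) in 6 marker gates (columns, the aged library left of the young one in each pair), as log10(CPM + 1), from dark (low) to bright (high). Ifitm2 and Ifitm3 are high in most columns, Ifit1 and Cxcl9 are brighter in aged than in young fibroblast-gated cells, and Ifit1, Mx2 and Cxcl10 are darker in aged than in young macrophage/monocyte-gated cells.

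The fibroblast gate held most of the transcripts. It had 75.7% of the set's UMIs in the aged library, where it had 67.1% of all UMIs, and 55.7% in the young library, where it had 60.9%. The macrophage/monocyte gate had 11.6% and 16.03% of the set's UMIs in the aged and young libraries, and the neutrophil gate 2.15% and 11.9%.

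In fibroblast-gated cells, genes of both lists were higher in the aged library. Of the 48 genes, 37 were called higher and none lower, against 3.74% of 17987 genes called higher and 3.0% called lower over the whole gene table of this gate. By list, 21 of 24 type I genes, 10 of 13 type II genes and 6 of 11 genes induced by both were called higher. The median log2 ratio was 0.93 for the type I list, 0.76 for the type II list and 0.23 for the genes induced by both, against 0.02 over all genes. Summed over the list, type I genes made up 1570.1 CPM in aged and 608.6 CPM in young cells, and type II genes 1145.1 and 564.9 CPM.

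Among the antiviral effectors, Ifit3b had the highest ratio of the type I list, with 12.3 CPM in aged and 1.90 CPM in young fibroblast-gated cells (6.46-fold, 5.36 to 7.83). Ifit3 and Ifit3b are near-identical copies, and how reads were shared between them is uncertain. Ifit1, whose product binds foreign RNA, had 305.7 and 53.5 CPM (5.71-fold, 5.52 to 5.92). Cmpk2, a mitochondrial nucleotide kinase beside Rsad2 in the genome, had 7.96 and 1.71 CPM (4.65-fold, 3.81 to 5.73), and Rsad2, which makes a chain-terminating nucleotide, had 170.4 and 46.0 CPM (3.71-fold, 3.56 to 3.86). The other 17 type I genes called higher had ratios from 1.79-fold for Xaf1 to 4.56-fold for Mx1. Isg15, a ubiquitin-like protein joined to other proteins, had 305.5 CPM in aged and 131.4 CPM in young cells. The 3 lowest ratios of the list were those of Stat2 (27.0 and 24.0 CPM, 1.12-fold), which carries the type I signal itself, and of the RNA-sensing enzymes Oas1a (1.53-fold, 1.42 to 1.65) and Oas2 (1.67-fold, 1.45 to 1.92), none of them called.

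Of the type II list, Cxcl9, a chemokine that draws Cxcr3-bearing T cells, differed most, with 319.3 CPM in aged and 82.8 CPM in young fibroblast-gated cells (3.86-fold, 3.75 to 3.97). Irgm1, a regulator of the immunity-related GTPases, followed with 68.0 and 21.0 CPM (3.23-fold, 3.05 to 3.43). Irf8, a transcription factor better known from myeloid cells, was scarce, at 3.20 and 1.003 CPM (3.19-fold, 2.42 to 4.24). Iigp1, a GTPase that attacks parasite vacuoles, was the second most abundant type II gene in aged cells, at 296.3 CPM, and the most abundant in young cells, at 175.7 CPM (1.69-fold, 1.65 to 1.73). The guanylate-binding protein genes Gbp2, Gbp3 and Gbp5 were called higher at 2.61-, 1.85- and 2.63-fold, and Gbp7 was not, at 1.32-fold. Also not called were Socs1, the feedback inhibitor of the Jak kinases (90.4 and 84.2 CPM, 1.07-fold), and Irf1, an early transcription factor of the type II response, which had 42.1 CPM in aged and 53.1 CPM in young cells (0.793-fold, 0.756 to 0.833).

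The genes induced by both types divided. Cxcl10, a second Cxcr3 ligand, had 825.1 CPM in aged and 293.9 CPM in young fibroblast-gated cells (2.81-fold, 2.76 to 2.85), and Cxcl11 had 57 and 5 UMIs (10.7-fold, 4.33 to 34.2), 89.5% of the 57 in 10 cells. Parp14 (2.65-fold), Zbp1 (1.78-fold), Ifi35 (1.74-fold) and Bst2 (1.65-fold) were also called higher. The Ifitm genes, whose membrane proteins hinder virus entry, were not called, and Ifitm3, Cxcl10 and Ifitm2 were the most abundant of all 48 genes at both ages. Ifitm3 had 1604 CPM in aged and 1385.5 CPM in young cells (1.16-fold), Ifitm2 had 657.6 and 749.7 CPM (0.877-fold), and Ifitm1 had 39.2 and 60.4 CPM (0.649-fold, 0.618 to 0.681), which was called lower under TMM scaling. Isg20 (1.07-fold) and Irf9 (1.23-fold) were not called either.

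Markers of other cells moved with the fibroblast gate's libraries in both directions. All 8 macrophage/monocyte markers had UMIs in both libraries, summing to 61.3 CPM in aged and 36.7 CPM in young fibroblast-gated cells, and the 7 neutrophil markers summed to 70.8 and 218.1 CPM. T/NK markers summed to 7.66 CPM in aged cells, with Cd3e and Cd3g at 0, and to 13.1 CPM in young cells. The 4 erythroid markers summed to 1.92 CPM in aged and 106.6 CPM in young cells, all 4 called lower. The gate's own 6 fibroblast markers summed to 60390.8 and 69220 CPM, 1 of them called lower. A list of 12 genes known to respond to tissue dissociation had a median log2 ratio of −0.57, with Fos, Jun, Hspa1a, Hspa1b, Atf3 and Nr4a1 called lower in aged fibroblast-gated cells. The part of these in the result was not tested.

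The gate's cells also fell into clusters in different proportions. In a clustering of all cells from which the 48 genes were left out, set beside the gates after seeing the data, 7 clusters with at least 20 cells of the gate in each library held 98.6% of aged and 93.6% of young fibroblast-gated cells. The 4 largest held 22.3% of aged and 14.3% of young cells (cluster 6), 21.1% and 35.9% (cluster 4), 19.9% and 7.48% (cluster 2) and 14.2% and 27.5% (cluster 7). Within clusters the summed type I level was higher in aged cells in 7 of 7, and so was the summed type II level. The gap in summed type I level was widest in cluster 6, with 4087.1 CPM in aged and 1129.9 CPM in young cells, where 35 genes were called higher against 3.73% of all genes. In cluster 4, 36 were called higher against 3.54%, while in cluster 2 there were 12 against 3.05% and in cluster 7 there were 7 against 2.55%.

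**Figure D2:**
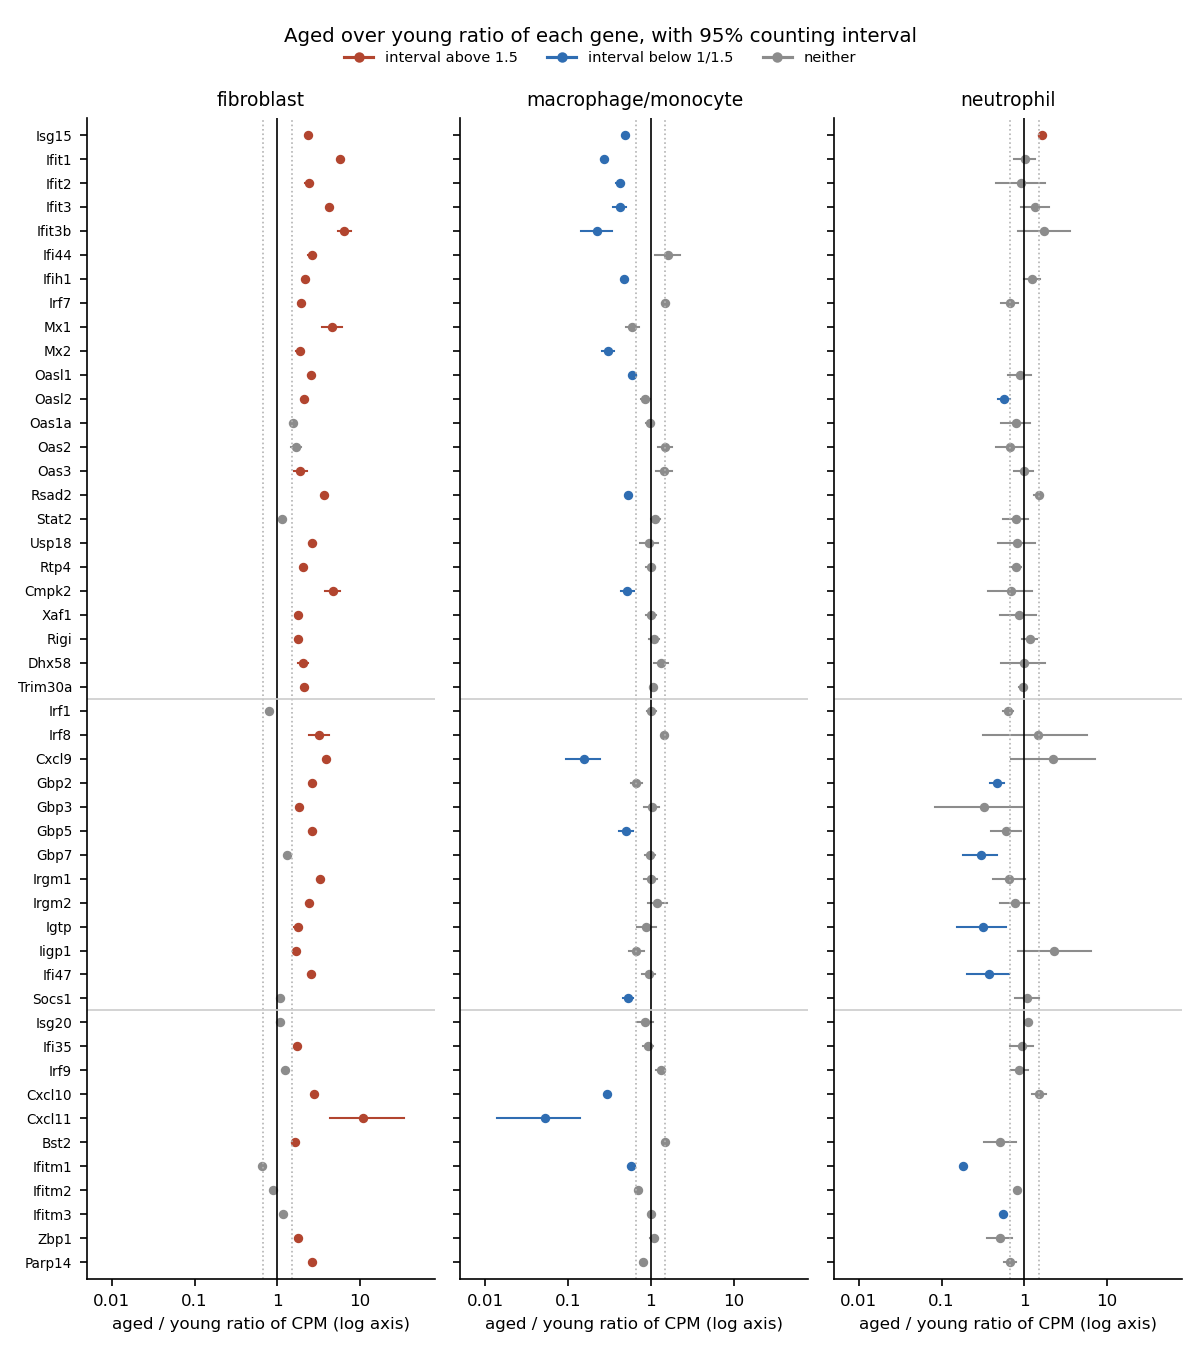
Aged over young ratio of each gene (log axis) with its 95% counting interval in the fibroblast, macrophage/monocyte and neutrophil gates, red where the interval lies above 1.5-fold and blue where it lies below the same fold in the other direction. There are 37 red genes in the fibroblast gate, 16 blue in the macrophage/monocyte gate, and 1 red and 7 blue in the neutrophil gate.

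Ifit1 and Cxcl9 transcripts were seen in more of the aged fibroblast-gated cells and were spread over more of them. To compare shares at 1 depth, each cell was thinned to 2000 UMIs, which left out 28 aged and 30 young cells below that depth. Ifit1 was then seen in 23.1% of aged cells (20.9% to 25.5%) and 7.43% of young cells (6.14% to 8.88%), and Cxcl9 in 24.4% (22.1% to 26.8%) and 6.89% (5.65% to 8.30%). Without thinning the shares were 45.8% and 25.4% for Ifit1 and 50.9% and 21.7% for Cxcl9. Ifitm3, in contrast, was seen in 90.6% of aged and 87.6% of young thinned cells. The 139 aged fibroblast-gated cells with the most Cxcl9 held 69.4% of its UMIs and the 152 young ones held 94.7%, each about the same fraction of its gate. For Ifit1 these shares were 71.0% and 88.3%, and for Ifitm3 they were 22.7% and 25.7%. The median share was 66.6% in aged and 79.5% in young cells over type I genes, and 58.0% and 66.25% over type II genes. It was larger in aged cells for Irf1, Socs1, Isg20, Ifitm1 and Ifit2 (79.95% and 75.7%). For Ifit2, 10 cells held 42.7% of the aged and 20.5% of the young UMIs, so its ratio in this gate leans on few cells. The same holds for Ifit3b (39.6% and 47.3%), Mx1 (44.85% and 69.35%) and Irf8 (47.6% and 41.2%). As a measure of stray RNA, in thinned neutrophil-gated cells, which should lack Cxcl9, 0.453% of 662 aged cells and 0 of 1092 young cells had a UMI, and a count of 0 allows up to 0.337%.

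Genes of both lists were met in the same cells. Counted over type I and type II genes together, 5 or more were found in 29.8% of thinned aged fibroblast-gated cells (27.3% to 32.3%) and in 11.4% of young ones (9.84% to 13.1%), and 26.4% and 34.4% of cells had none. Among aged cells with a type I UMI 76.8% also had a type II UMI, against 34.0% of those without one, and among young cells 65.2% and 34.5%. In macrophage/monocyte-gated cells these shares were 46.1% and 29.4% in the aged library and 48.7% and 31.1% in the young library, and in neutrophil-gated cells 22.2% and 17.8%, and 35.4% and 18.9%. The thinned share with 5 or more genes was 14.2% of aged (12.2% to 16.4%) and 18.7% of young (15.9% to 21.8%) macrophage/monocyte-gated cells, and 5.74% of aged (4.09% to 7.79%) and 7.23% of young (5.77% to 8.93%) neutrophil-gated cells, with overlapping intervals in both gates. These gaps depended on the depth chosen. Thinned to 1000 UMIs, the share in macrophage/monocyte-gated cells was 5.49% of aged (4.24% to 6.97%) and 10.5% of young cells (8.40% to 12.99%), with intervals apart. Unthinned, it was 16.1% of aged (13.5% to 19.0%) and 28.6% of young (26.0% to 31.3%) neutrophil-gated cells, where the young cells were deeper.

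**Figure D3:**
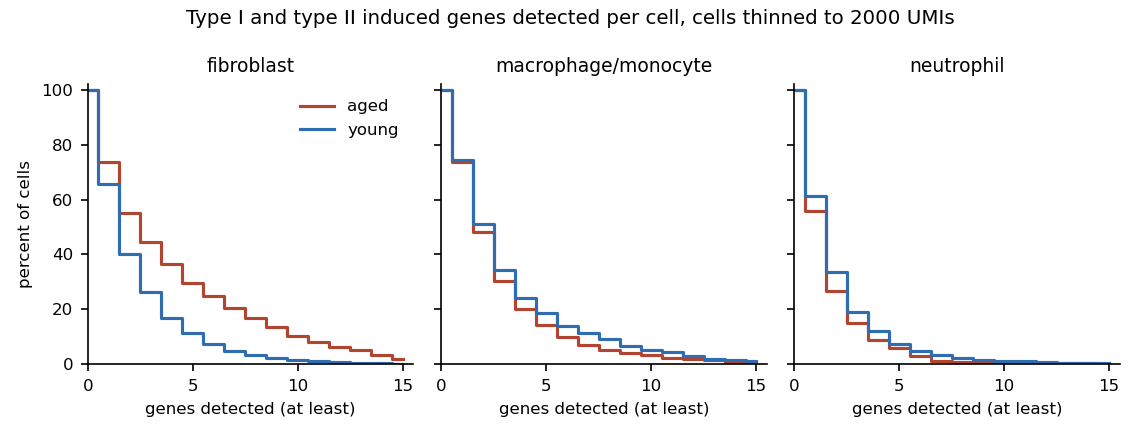
Percent of cells (vertical axis) with at least the given number of type I and type II genes detected (horizontal axis) after thinning each cell to 2000 UMIs, by gate, aged and young. The aged curve lies above the young one in the fibroblast gate (29.8% and 11.4% of cells with 5 or more genes) and below it in the macrophage/monocyte gate (14.2% and 18.7%).

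In macrophage/monocyte-gated cells, part of the set was lower in the aged library. Of the 48 genes, 16 were called lower and none higher, against 1.97% of 12989 genes called lower and 3.87% called higher over the whole table. Those called lower were 10 type I genes (Isg15, Ifit1, Ifit2, Ifit3, Ifit3b, Ifih1, Mx2, Oasl1, Rsad2 and Cmpk2), 3 type II genes (Cxcl9, Gbp5 and Socs1) and 3 genes induced by both (Cxcl10, Cxcl11 and Ifitm1). The median log2 ratio was −0.12 for the type I list, −0.07 for the type II list and −0.16 for the genes induced by both, against 0.14 over all genes. The summed type I level was 1462.4 CPM in aged and 2424.5 CPM in young cells, and the summed type II level 337.4 and 341.6 CPM.

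Ifit1 had 47.7 CPM in aged and 173.6 CPM in young macrophage/monocyte-gated cells (0.275-fold, 0.253 to 0.298). Ifit3b had 1.82 and 8.08 CPM (0.225-fold) and Mx2 had 11.6 and 37.8 CPM (0.306-fold). Oasl1, a relative of the Oas enzymes, was the most abundant gene of the type I list here, at 307.0 CPM in aged and 522.5 CPM in young cells (0.588-fold, 0.567 to 0.609). The 3 chemokine genes were called lower, Cxcl10 with 93.7 and 320.7 CPM (0.292-fold, 0.276 to 0.310), Cxcl9 with 1.39 and 9.05 CPM (0.154-fold, 0.0941 to 0.242) and Cxcl11 with 4 and 62 UMIs (0.0523-fold, 0.0138 to 0.141). In the young library 10 cells held 85.95% of the Cxcl9 and 85.5% of the Cxcl11 UMIs of the gate, and 35.1% of the Cxcl10 UMIs. Over the type I genes called lower this share ran from 17.4% for Oasl1 to 80.6% for Ifit3b, with 66.95% for Cmpk2. The Cxcl9, Cxcl11, Ifit3b and Cmpk2 ratios thus rest on few cells. Gbp5 (10.7 and 21.2 CPM, 0.502-fold) and Socs1 (18.8 and 35.3 CPM, 0.532-fold) completed the lowest type II ratios.

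Other type I genes of the same cells had ratios above 1 without a call. They included Ifi44 (6.06 CPM in aged and 3.81 CPM in young cells, 1.59-fold, 1.12 to 2.27), Irf7, the transcription factor that amplifies type I interferon (73.9 and 49.4 CPM, 1.496-fold, 1.36 to 1.65), and Oas2 (19.2 and 12.9 CPM, 1.48-fold). Of the type II list, Irf8 (148.1 and 101.9 CPM, 1.45-fold), Irgm2 (1.19-fold) and Gbp3 (1.02-fold) had the highest ratios. Ifitm3 was alike in level, at 1063.5 CPM in aged and 1060.5 CPM in young cells, and Ifitm2 had 739.5 and 1069 CPM (0.692-fold). Neutrophil markers summed to 464.1 CPM in aged and 980.5 CPM in young macrophage/monocyte-gated cells, all 7 of them detected, and fibroblast markers to 162.0 and 184.3 CPM. The neutrophil markers' part in the result was not tested. Col1a1 in these cells stood at 0.246% of its fibroblast-gate level in the aged and 0.226% in the young library, a measure of stray RNA, while Cxcl9 stood at 0.436% and 10.9%.

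A small group of macrophage/monocyte-gated cells carried much of the type I signal, and it was smaller in the aged library. It was found through Ifnb1, the gene of interferon beta, and was chosen after the values had been seen. Ifnb1 had 155 UMIs in 27 of 1181 aged cells (2.29%) and 595 UMIs in 63 of 748 young cells (8.42%), or 9.39 and 44.5 CPM (0.211-fold, 0.176 to 0.252). After thinning, 1.09% of aged (0.566% to 1.90%) and 5.03% of young cells (3.55% to 6.89%) had an Ifnb1 UMI, and 0 of 662 aged and 0 of 1092 young neutrophil-gated cells did, which allows up to 0.556% and 0.337%. Ifnb1 elsewhere was scarce: fibroblast-gated cells had 42 UMIs in 19 aged cells and 12 UMIs in 8 young cells (3.29-fold, 1.70 to 6.86). The cells with Ifnb1 had median depths of 14743 UMIs in the aged and 15410 in the young library, against 12204 and 16187 in the cells without. Of the cells with Ifnb1, 26 of 27 and 63 of 63 had high C1qa and C1qb, as did 68.25% of aged and 65.51% of young cells of the whole gate.

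These cells were rich in type I transcripts in both libraries. Summed type I genes made up 12018.6 CPM in aged cells with Ifnb1, against 1199 CPM in aged cells without, and 13184.9 CPM in young cells with Ifnb1, against 1452.2 CPM without. Type II genes made up 804.1 against 325.8 CPM in aged cells and 701.3 against 309.1 CPM in young cells. Called higher in the cells with Ifnb1 were 19 of 24 type I, 6 of 13 type II and 2 of 11 other genes in the aged library, against 2.91% of all genes, and 23, 8 and 3 in the young library, against 4.46%. Ifit1 had 923.5 CPM in aged cells with Ifnb1 and 25.8 CPM in those without (35.8-fold, 31.0 to 41.2), and 1461.2 and 57.3 CPM in young cells (25.5-fold, 23.4 to 27.9). Rsad2 had 3131.6 and 146.2 CPM in aged and 3473.8 and 137.7 CPM in young cells. Ifitm1 alone was called lower, at 17.4 and 85.8 CPM in aged and 37.9 and 156.4 CPM in young cells, against 2.28% and 4.15% of all genes, and Cxcl9 was not called, with 0 UMIs in the aged cells with Ifnb1 and 6.32 CPM in the young ones.

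With 2.43% of the gate's UMIs in the aged library, the cells with Ifnb1 held 20% of its type I UMIs, and with 8.29% in the young library they held 45.1%. With those cells left out of both libraries, 9 genes were still called lower in aged macrophage/monocyte-gated cells (Isg15, Ifit1, Ifih1, Mx2, Cxcl9, Socs1, Cxcl10, Cxcl11 and Ifitm1), and 1, Ifi44, was called higher (2.76-fold, 1.74 to 4.54). The calls of 7 genes were lost. Of these, Oasl1 (0.673-fold) and Gbp5 (0.588-fold) kept ratios near those of the whole gate, Ifit2 stood at 0.824-fold, and Ifit3 (0.995-fold), Rsad2 (1.06-fold), Cmpk2 (1.33-fold) and Ifit3b (2.06-fold, 0.964 to 4.76) stood near or above 1. The type I median log2 ratio was 0.16, and Ifit1 stood at 25.8 CPM in aged and 57.3 CPM in young cells (0.451-fold, 0.399 to 0.510). In C1q-high cells of the gate 15 of 48 genes were called lower, against 1.93% of all genes, and in C1q-low cells 6 of 44 with enough UMIs, against 1.56%. Within clusters of the gate the direction was not uniform. Of 5 clusters with at least 20 cells of the gate in each library, 2 had a higher summed type I level in aged cells. The summed type I level was lower in aged cells in cluster 9 (2347.3 CPM in aged and 4710.9 CPM in young cells), which held 36.9% of aged and 38.6% of young cells, and in cluster 13 (1021.6 and 1759 CPM), which held 15.2% and 21.7%. In cluster 14, which held 27.5% of aged and 17.9% of young cells, it was higher (739 and 563 CPM). Called lower were 17, 10 and 2 genes in clusters 9, 13 and 14, against 1.49%, 1.81% and 1.4% of all genes. In cluster 14, 3 genes were called higher, against 7.39% of all genes. The smaller clusters 8 (464 CPM in aged and 439 CPM in young cells) and 1 (755 and 864 CPM) had narrower gaps. In cluster 8, 3 genes were called higher and 1 lower, against 3.86% and 2.09% of all genes. With cells classed by clusters instead of gates, 13 genes were called lower, and the calls of Oasl1, Rsad2 and Cmpk2 were lost.

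**Figure D4:**
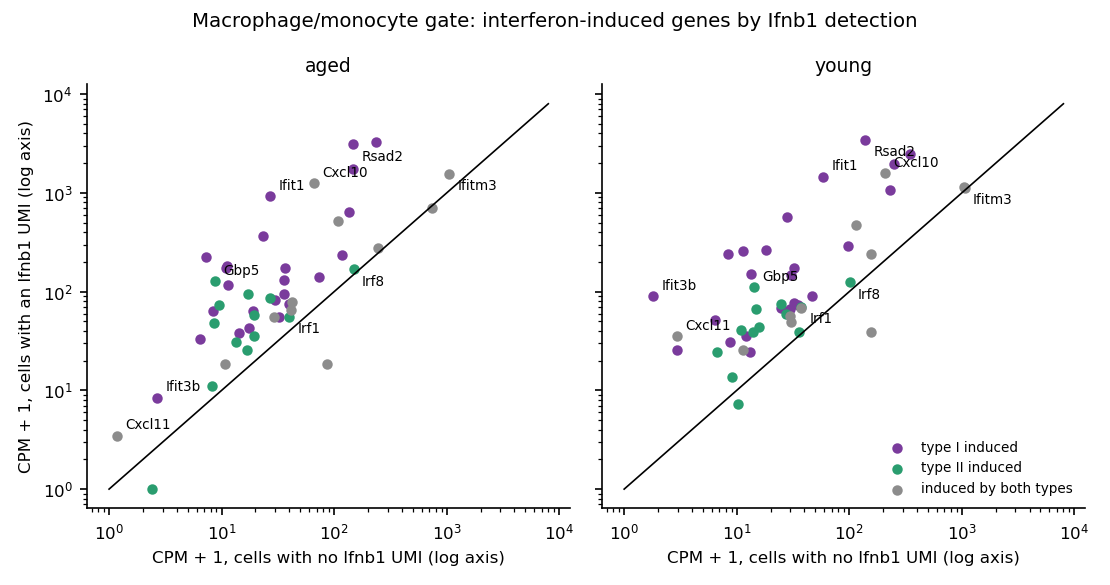
Level of each gene (CPM + 1, log axes) in macrophage/monocyte-gated cells with an Ifnb1 UMI (vertical) against those without (horizontal), aged library on the left and young library on the right, coloured by list. Most type I genes lie above the line of equal level (19 of 24 and 23 of 24 called higher), while Ifitm1 lies below it in both panels.

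In neutrophil-gated cells few of the genes were called. Of the type II genes with enough UMIs 4 of 10 were called lower in the aged library, and of the type I genes 1 of 21 was called lower and 1 higher. At least 20 UMIs were found for 41 of the 48 genes, and Ifi44, Mx1, Mx2, Irf8, Cxcl9, Iigp1 and Cxcl11 were too scarce to compare. Of the 41, 1 was called higher and 7 lower, against 6.02% of 9934 genes called higher and 4.35% called lower over the whole table. Under TMM scaling these counts were 0 and 9. The median log2 ratio was −0.07 over 21 type I genes, −0.55 over 10 type II genes and −0.41 over 10 genes induced by both, against 0.09 over all genes. The gene called higher, Isg15, had 303.7 CPM in aged and 187.3 CPM in young cells (1.62-fold, 1.51 to 1.75). Its interval only just cleared the limit, and the call was lost without the 10 cells with the most of the set's UMIs (1.56-fold) and under TMM scaling (1.46-fold).

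Of the type I genes with 50 or more UMIs in neutrophil-gated cells, Rsad2 (97.3 and 65.2 CPM, 1.49-fold) and Ifit3 (1.36-fold) had the next highest ratios, without a call. Oasl2 was called lower, with 46.8 CPM in aged and 83.1 CPM in young cells (0.564-fold, 0.477 to 0.663), and Oas2 (0.669-fold) and Irf7 (0.670-fold) were not called. The type II genes called lower were Gbp7 with 5.43 and 18.2 CPM (0.298-fold, 0.180 to 0.469), Igtp with 2.85 and 8.91 CPM (0.319-fold), Ifi47 with 3.88 and 10.3 CPM (0.376-fold) and Gbp2 with 30.5 and 65.4 CPM (0.467-fold, 0.380 to 0.569). They encode interferon-inducible GTPases, as does most of the type II list. Gbp3, Gbp5, Irgm1 and Irgm2, which encode such GTPases too, were not called. Socs1 (1.09-fold), Irgm2 (0.771-fold) and Irgm1 (0.657-fold) were the highest of the type II list. The call of Oasl2 was lost when cells with 2 gates were included, and that of Gbp2 when cells were classed by clusters. Those of Igtp and Ifi47 were lost after thinning, which leaves fewer UMIs.

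The widest gap of the neutrophil gate was in Ifitm1. It had 397.6 CPM in aged and 2199 CPM in young neutrophil-gated cells (0.181-fold, 0.172 to 0.190), and after thinning it was seen in 34.3% of aged and 82.6% of young cells (49.4% and 90.4% without thinning). Ifitm3 was also called lower, at 287.2 and 526.6 CPM (0.545-fold, 0.511 to 0.582), and Ifitm2 was not, at 1424.1 and 1762.3 CPM (0.808-fold). The 7 neutrophil markers summed to 62542.5 CPM in aged and 92054.5 CPM in young cells of this gate, 2 of them called lower, and the 8 macrophage/monocyte markers to 134.3 and 263.3 CPM. Their part in these differences was not tested. The neutrophil-gated cells also lay in different clusters, with 33.7% of aged and 6.77% of young cells in cluster 18, 22.7% and 44.4% in cluster 10, and 7.29% and 25.3% in cluster 0. Ifitm1 was called lower in each of the 6 clusters with at least 20 cells of the gate in both libraries, at 0.0532- to 0.324-fold.

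Set side by side, 14 genes were called higher in the aged library's fibroblast-gated cells and lower in its macrophage/monocyte-gated cells: Isg15, Ifit1, Ifit2, Ifit3, Ifit3b, Ifih1, Mx2, Oasl1, Rsad2, Cmpk2, Cxcl9, Gbp5, Cxcl10 and Cxcl11. The ratio was higher in fibroblast-gated than in macrophage/monocyte-gated cells for 45 of 48 genes. Among the 12603 genes with enough UMIs in both gates, 43 (0.341%) were called higher in the first and lower in the second, and 36.1% had the higher ratio in fibroblast-gated cells. Over all cells together, 24 genes were called higher and 1 lower, Ifitm1, against 3.53% and 4.93% of all genes; most of the UMIs in that sum come from the fibroblast gate. The difference between the gates was not tested, since each age has 1 library.

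Which of these gates had the higher level differed between the libraries for some type I genes. In the aged library 12 of 24 type I genes were higher in fibroblast-gated than in macrophage/monocyte-gated cells, with intervals apart, and the other 12 the reverse. In the young library 1, Ifi44, was higher in fibroblast-gated cells, 19 were higher in macrophage/monocyte-gated cells and 4 had overlapping intervals. The higher gate was thus the fibroblast gate in the aged and the macrophage/monocyte gate in the young library for 7 genes (Isg15, Ifit1, Ifit3, Ifit3b, Mx2, Oasl2 and Trim30a), while 12 were higher in macrophage/monocyte-gated cells in both. Type II genes were higher in fibroblast-gated cells at both ages more often than the reverse, 10 against 1 (Irf8) in the aged library and 8 against 4 (Irf8, Gbp5, Gbp7 and Ifi47) in the young one. The order of Ifit1 was fibroblast gate (305.7 CPM), macrophage/monocyte gate (47.7 CPM) and endothelial gate (40.8 CPM) in the aged library, the last pair with overlapping intervals, and macrophage/monocyte gate (173.6 CPM), endothelial gate (121.2 CPM) and fibroblast gate (53.5 CPM) in the young library.

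Over the 6 gates, the aged library had its highest level in the endothelial gate for 16 of 48 genes, with an interval apart from the next gate for 10 of them. It was the fibroblast gate for 14 genes (5 apart), the macrophage/monocyte gate for 7 (6 apart), the T/NK gate for 7 (1 apart), and the dendritic and neutrophil gates for 2 each (both apart). In the young library it was the endothelial gate for 25 genes (20 apart), the macrophage/monocyte gate for 10 (7 apart), the neutrophil gate for 7 (6 apart), the dendritic gate for 5 (2 apart) and the fibroblast gate for 1 (Socs1, apart). The same gate was highest at both ages for 20 of 48 genes. Iigp1 was highest in endothelial-gated cells at both ages, with 393.5 CPM in aged and 615.5 CPM in young cells, as was Ifitm3, with 1915.4 and 2322.3 CPM. Oasl1 was highest in macrophage/monocyte-gated cells at both ages, above endothelial-gated cells with 38.7 and 61.1 CPM.

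The smaller gates rest on few cells and differed among themselves. In endothelial-gated cells 7 of 45 genes with enough UMIs were called lower in the aged library and none higher, against 4.04% and 2.11% of all genes. They were Isg15 (190.4 CPM in aged and 477.3 CPM in young cells, 0.399-fold, 0.358 to 0.444), Ifit1 (40.8 and 121.2 CPM, 0.337-fold), Ifit3, Ifih1, Cxcl10, Ifitm1 and Ifitm2. Markers of other cells were lower in the same aged cells: the 7 neutrophil markers summed to 37.0 CPM in aged and 572.4 CPM in young endothelial-gated cells, the 8 T/NK markers to 16.4 and 212.5 CPM, with Cd3e, Cd3d, Cd3g, Trac, Trdc and Klrb1c at 0 in aged cells, and the 8 macrophage/monocyte markers to 177.8 and 319.3 CPM. Their part in these calls was not tested.

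In dendritic-gated cells 29 genes could be compared; Trim30a was called higher (119.8 and 39.8 CPM, 3.01-fold) and Oasl1, Cxcl9 and Cxcl10 lower, against 3.01% and 2.68% of all genes. Cxcl9 had 2 UMIs in 61 aged and 94 UMIs in 33 young dendritic-gated cells (2.05 and 149.6 CPM, 0.0137-fold, 0.00164 to 0.0509). The dendritic markers themselves summed to 1707.5 CPM in aged and 2751.2 CPM in young cells of this gate, the neutrophil markers to 352.4 and 1027.9 CPM and the T/NK markers to 17.4 and 103.4 CPM, and 5 of the 12 dissociation genes were called lower (median log2 ratio −0.80). The part of these in the calls was not tested.

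In T/NK-gated cells 9 of 29 genes were called higher and Cxcl9 lower (0 and 69 UMIs), against 5.69% and 4.25% of all genes, and Irf8 had 321.6 and 49.3 CPM. The dendritic markers summed to 358.3 CPM in the 32 aged T/NK-gated cells, with Xcr1, Clec9a, Siglech and Fscn1 at 0, and to 37.7 CPM in the 288 young ones. The gate's own T/NK markers summed to 2376.5 CPM in aged and 5151.8 CPM in young cells and the macrophage/monocyte markers to 189.9 and 583.3 CPM, and 5 dissociation genes were called lower (median log2 ratio −0.97). The part of these in the calls was not tested.

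Upstream of the set, ligands were scarce. Ifng was called higher in aged T/NK-gated cells, with 21 UMIs in 8 of 32 aged cells (25.0%) and 36 UMIs in 9 of 288 young cells (3.125%), or 64.3 and 15.4 CPM (4.17-fold, 2.31 to 7.33), at median depths of 7321 and 7389 UMIs. After thinning it was seen in 2 of 31 aged cells (6.45%, 0.791% to 21.4%) and 6 of 284 young cells (2.11%, 0.779% to 4.54%), with overlapping intervals. Fibroblast-gated cells had 19 Ifng UMIs in 14 aged cells and 2 in 2 young cells, also called higher in the aged library. These were 39.6% of the aged and 3.33% of the young library's Ifng UMIs, against 43.75% and 60.0% in T/NK-gated cells. After thinning, 1 fibroblast-gated cell of each library had an Ifng UMI. Of the receptor genes, none was called in the fibroblast, macrophage/monocyte, neutrophil or endothelial gate. In T/NK-gated cells Ifngr1 (1390.4 CPM in aged and 488 CPM in young cells, 2.85-fold) and Ifnar2 (2.23-fold) were called higher and Ifngr2 lower (5 and 162 UMIs, 0.221-fold), and in dendritic-gated cells Ifngr1 was called higher (324 and 169 CPM, 1.92-fold). In fibroblast-gated cells Ifnar1 had 41.5 CPM in aged and 43.7 CPM in young cells (0.949-fold), Ifnar2 172.7 and 166.8 CPM (1.04-fold), Ifngr1 48.2 and 46.2 CPM (1.04-fold) and Ifngr2 49.95 and 48.9 CPM (1.02-fold). Of the nucleic acid sensors, Tlr3, the receptor for double-stranded RNA in endosomes, was called higher in fibroblast-gated cells (12.99 and 7.71 CPM, 1.68-fold, 1.51 to 1.88) and no other was called in the 3 large gates. Tlr7, which senses single-stranded RNA, had the lowest pathway ratio of the fibroblast gate on few UMIs (28 in aged and 41 in young cells, 0.641-fold, 0.382 to 1.06), and Aim2, a sensor of DNA, had 52.0 and 35.1 CPM in macrophage/monocyte-gated cells (1.48-fold) without a call.

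A second list of 52 interferon-induced genes outside the set was also called higher most often in the fibroblast gate. In fibroblast-gated cells 20 of 51 with enough UMIs were called higher and none lower, with a median log2 ratio of 0.36, against the 3.74% and 3.0% of all genes above. Cd274, which encodes the checkpoint ligand PD-L1, had 39.1 CPM in aged and 12.8 CPM in young cells (3.07-fold, 2.84 to 3.31), Herc6, the ligase that joins Isg15 to proteins in mice, 43.5 and 15.99 CPM (2.72-fold), and Nlrc5, the activator of class I antigen presentation genes, 16.6 and 6.73 CPM (2.47-fold). The antigen-processing genes Psmb8 (1.58-fold), Psmb9 (1.70-fold) and Tap1 (1.77-fold) were called higher too, and Slfn1 had the lowest ratio (0.665 and 1.02 CPM, 0.653-fold, 0.442 to 0.958) without a call. In macrophage/monocyte-gated cells 1 of 50 was called higher, Ifi27l2a (856.1 and 508.1 CPM, 1.69-fold), and 2 lower, Slfn9 (4.85 and 9.72 CPM, 0.499-fold) and Tgtp2. Over all genes of that gate 3.87% were called higher and 1.97% lower. In neutrophil-gated cells, of 42 genes, Ifi27l2a (133.0 and 72.6 CPM, 1.83-fold) and Ifit1bl1 were called higher and Slfn2, Ly6e (58.2 and 182.6 CPM, 0.319-fold, 0.276 to 0.366) and Oas1g lower. The shares over all genes there were 6.02% and 4.35%. In both of these gates the counts were thus near or below what all genes gave, or rested on few genes. Ifi27l2a was thus called higher in all 3 large gates, with 452.1 and 214.7 CPM (2.11-fold) in fibroblast-gated cells.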

How the data were processed

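Single-cell RNA was measured in 1 aged and 1 young library, each of pooled mice, grouped by the labelled age. The deposited files hold raw UMI counts per gene and barcode, made by the authors; per the file headers the software was Cell Ranger 8.0.1. Per the submitters' processing notes it was version 9.0, with STAR, Seurat 4 and the GRCm38/mm10 build also named. The kit is given as version 3 and as version 3.1, per the labels.

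Cells with at least 500 UMIs, 200 genes and under 15% mitochondrial UMIs were kept, from 4379 aged and 4932 young barcodes. Each cell was scored per cell type as the mean over markers of its level per 10000 UMIs, divided by the 90th percentile of cells with the marker and limited to 1. The best score, at least 0.1, set the gate, and a second score of at least 0.5 of the best left the cell out. No doublet caller was run. Among the 10 leading genes of each gate, 0 were markers of another cell type. UMIs were summed per gate and library; intervals are exact Poisson (levels), Clopper-Pearson (shares) and conditional binomial (ratios), at 95%. Molecules of 1 cell are not independent, so the intervals are too narrow even for cells within a library, and they do not cover differences between mice. The calls and the counts of intervals apart rest on these intervals. The calling was tested on simulated data. Promoter entries were matched by gene identifier or symbol (29 of 38 had their first bases found in a transcript of the same strand, 0 in one of the opposite strand).

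The genes and lists were chosen with earlier results of these data known; the gate limit, the split by Ifnb1, the split by C1q (5 per 10000 UMIs of C1qa and C1qb) the split of gates by cluster and the thinned ratios were chosen after seeing the data. Named from the set in each of the 3 large gates were the 3 highest and 3 lowest ratios of the type I and the type II list with at least 50 UMIs, the 3 highest levels, and the 2 highest and 2 lowest ratios of the pathway lists. Alternatives were TMM and median-of-ratios scaling, per-cell means, gate limits 1.5 times as high and as low, clusters made without the set (2000 variable genes, 30 components, 15 neighbours, resolution 1), inclusion of cells with 2 gates, 10% mitochondrial UMIs, cells left out, other UMI minimums, added CPM and folds. Python 3.11.15, numpy 2.4.6, pandas 2.3.3, scipy 1.17.1, scanpy 1.11.5, igraph 0.11.9, matplotlib 3.10.9, R 4.3.3 and edgeR 4.0.16 (scaling factors only) were used. The interferon signal transducers are not reported here.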

Additional observations from a re-analysis of the deposited data

Results flagged for a closer look

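Called in opposite directions in different gates of the aged library were 14 genes higher in fibroblast-gated and lower in macrophage/monocyte-gated cells (Isg15, Ifit1, Ifit2, Ifit3, Ifit3b, Ifih1, Mx2, Oasl1, Rsad2, Cmpk2, Cxcl9, Gbp5, Cxcl10 and Cxcl11). Another 4 were higher in fibroblast-gated and lower in neutrophil-gated cells (Oasl2, Gbp2, Igtp and Ifi47). Isg15, 1 gene, was lower in macrophage/monocyte-gated and higher in neutrophil-gated cells. Its neutrophil call was lost under TMM scaling, without the 10 cells richest in the set and with cells classed by clusters. For the pairs with the neutrophil gate the share over all genes was not computed, so these counts cannot be judged against it. With 1 library per age these differences between gates were not tested. Of the 14, calls in the macrophage/monocyte gate were lost for 7 when cells with an Ifnb1 UMI were left out, with ratios still near those of the whole gate for Oasl1 (0.673-fold) and Gbp5 (0.588-fold) and of 0.824 to 2.06 for Ifit2, Ifit3, Ifit3b, Rsad2 and Cmpk2. Over all genes 43 of 12603 (0.341%) were called higher in fibroblast-gated and lower in macrophage/monocyte-gated cells.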

How the results depend on the processing

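No paired analysis was possible because each age has 1 library. TMM scaling moved the log2 ratios by −0.08, −0.23 and −0.16 in the fibroblast, macrophage/monocyte and neutrophil gates. Of the list, gate and motif values recomputed under the alternatives chosen at the outset, 129 stayed within their interval or within 1.5 times the count and 51 moved; where no value or construction shows it, the cause was not tested. In fibroblast-gated cells 36 to 38 genes were called higher under each alternative except a fold of 2 (23) and thinning to 2000 UMIs (24, all among the 37). Ifitm1 was called lower there (1 gene) under TMM and median-of-ratios scaling, per-cell means, inclusion of cells with 2 gates and without the 5% deepest cells. The type II median log2 ratio there was 0.6888 under TMM, 0.6887 under median-of-ratios scaling, 0.8789 with per-cell means, 0.9423 after thinning and 1.0677 with 1 CPM added, and the type I median with 1 CPM added was 1.0669.

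In macrophage/monocyte-gated cells the type I median was −0.3161 under TMM, −0.3236 under median-of-ratios scaling, −0.3132 with per-cell means and −0.3146 in C1q-high cells, and was 0.163 without cells with Ifnb1. Genes called lower there numbered 9 at a fold of 2, 6 in C1q-low cells and 9 without cells with Ifnb1. Called higher were 2 with per-cell means (Ifi44 and Irf7), 1 with clusters (Bst2) and 1 without cells with Ifnb1 (Ifi44), where the ratio of Ifit3b was reversed to 2.056 (0.964 to 4.76).

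In neutrophil-gated cells 0 genes were called higher under either scaling, the lower gate limit, a fold of 2, thinning, or without the 10 cells richest in the set or the 5% deepest cells. With per-cell means 3 were (Isg15, Ifit3b and Cxcl10), with clusters 2 (Irf8 and Iigp1) and with cells of 2 gates 2 (Isg15 and Irf8). Called lower were 16 with per-cell means, for which there is no counting interval, and 2 at a fold of 2. The type II median there was −0.9716 with per-cell means, −0.8382 with 1 CPM added and −1.0108 after thinning.

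Depth sets the share of cells with 5 or more genes. Thinned to 1000 UMIs it was 16.36% of aged and 3.476% of young fibroblast-gated, 5.488% and 10.53% of macrophage/monocyte-gated, and 2.131% and 2.575% of neutrophil-gated cells; unthinned it was 87.99% and 81.4%, 57.41% and 62.57%, and 16.09% and 28.62%. The summed level of the set by per-cell means was 6844.8 CPM in aged and 4082 in young fibroblast-gated cells, 4302.9 and 6154.7 in macrophage/monocyte-gated cells, and 3571.7 and 6395.5 in neutrophil-gated cells. With the alternative motif letters 8.574% of all promoters held the shorter ISRE and 6.986% the longer GAS, as did 0 type II promoters. Of the single-gene values under these alternatives, 403 stayed within their counting interval and 227 moved.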
